A study of Mus musculus with 71 samples.

Results

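Potassium channel genes were followed in bulk RNA-seq of the mouse nucleus accumbens (NAc), ventral tegmental area (VTA) and prefrontal cortex (PFC) after cocaine or saline self-administration. The genes were all entries whose symbol begins with Kcn. An entry was kept when its mean over the libraries of a table reached 1 CPM in count tables or 0.5 RPKM in RPKM tables. CPM are counts scaled to the library total, adjusted by the normalisation factor TMM. RPKM are reads scaled to the library total and to transcript length. Of 37681 genes listed, 96 entries carried a Kcn symbol. Of these, 78 were kept in at least 1 of the 6 tables, 66 in all 6 and 18 in none. The tables kept 73 entries in the NAc at 1 day, 73 in the NAc at 28 days, 72 in the VTA at 1 day, 77 in the VTA at 28 days, 71 in the PFC at 1 day and 75 in the PFC at 28 days. The 18 entries under the minimum everywhere were Kcna7, Kcna10, Kcne1, Kcne2, Kcne3, both Kcnh8 entries, Kcnj1, Kcnj15, Kcnk7, Kcnk15, Kcnk16, Kcnk18, Kcnmb3, Kcnn4, Kcnq1, Kcnrg and Kcnv2. Just inside the minimum stood Kcng3 in the VTA at 28 days with a mean of 1.03 CPM and Kcng1 in the VTA at 1 day with 0.599 RPKM. Just outside stood Kcnmb1 in the PFC at 28 days with 0.992 CPM and Kcnk4 in the NAc at 28 days with 0.951 CPM.

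All libraries came from wild type C57BL/6 mice (the C57BL/6J substrain by the study's methods), adults of about 8 weeks of both sexes, that were food trained, fitted with a jugular catheter and then left to self-administer in daily sessions over 21 days, earning either cocaine at 0.7 mg/kg per infusion or saline. Tissue was punched from each region after 1 day or 28 days of abstinence, so that each punch held neurons, glia and vessels together. The 12 groups were cocaine and saline in each region at each time, with 6 libraries each except saline in the VTA at 28 days, which had 5. Neither the sex of the mice behind a library nor the number of mice pooled in it was given, and p-values therefore measure the spread between libraries. Whether libraries of different regions came from the same mice was not given either, and the tests between regions treated them as independent.

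Potassium channels let potassium leave the cell, which sets the resting potential, ends action potentials and limits firing. Voltage-gated channels (Kcna to Kcnd, Kcnh, Kcnq) are built from pore-forming alpha subunits. Some of these subfamilies pair with silent alpha subunits (Kcnf, Kcng, Kcns, Kcnv) or with cytosolic partners. Such partners include the beta subunits (Kcnab) and the calcium-binding KChIP proteins (Kcnip). Inward rectifiers (Kcnj) include the G protein-gated GIRK channels through which dopamine and GABA-B receptors quiet dopamine neurons, the tandem-pore channels (Kcnk) carry background leak, and the Kcnma, Kcnn and Kcnt genes encode channels opened by calcium or sodium.

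Depth ran from 20971967 to 49700932 reads per library over 71 libraries (median 28687877). Summed markers of dopamine neurons reached 1160 to 5691 CPM in the VTA at 28 days, against 33.6 to 61.1 CPM in the NAc and 18.7 to 33.3 CPM in the PFC at that time. The library labelled PFC saline 4 at 28 days stood apart. Its summed medium spiny neuron markers, which define striatal projection neurons, stood at 3198 CPM, whereas the other PFC libraries of that time held 258 to 343 CPM and the NAc libraries 5153 to 9184 CPM. Its cortical excitatory neuron markers summed to 1533 CPM, below the 2056 to 2479 CPM of the other PFC libraries and above every NAc library of that time. Cortical excitatory neuron markers in the NAc ranged from 38.6 to 921 CPM at 1 day and from 56.7 to 670 CPM at 28 days, with both treatments spread over the range. In such bulk tissue fewer cells of a type and less RNA per cell cannot be told apart.

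The regional pattern of the channel genes was examined in saline libraries at 28 days, where all 3 regions were deposited as counts. Per kilobase of transcript, the 78 genes summed to 1285 ± 81.8 CPM per kb in the NAc (SD, n = 6), 820 ± 84.5 in the VTA (SD, n = 5) and 1318 ± 52.0 in the PFC (SD, n = 6). With edgeR's quasi-likelihood test at an adjusted p under 0.05, 61 of 78 genes (78.2%) differed between NAc and VTA, against a background of 62.5% over all genes tested, which include genes below the minimum set here. Of these, 32 were higher in the NAc (background 29.8%) and 29 in the VTA (background 32.6%). Between NAc and PFC 54 differed (69.2%, background 40.7%), 19 higher in the NAc (background 20.0%) and 35 in the PFC (44.9%, background 20.7%). VTA and PFC differed in 61 (78.2%, background 57.8%), 19 higher in the VTA (24.4%, background 29.8%) and 42 in the PFC (53.8%, background 28.1%). The VTA stood below both other regions for 31 of the 78 genes (39.7%, background 20.0%) and above both for 16 (20.5%, background 22.8%). The NAc was above both others for 14 genes (17.9%, background 12.7%) and below both for 18 (23.1%, background 10.9%), and the PFC above both for 19 (24.4%, background 10.1%) and below both for 5 (6.41%, background 6.43%). Each region was deposited in a table of its own, so region and any difference in handling between tables cannot be told apart. Without PFC saline 4, 53 genes differed between NAc and PFC and 59 between VTA and PFC. In the saline libraries at 1 day, the direction was the same for 60 of 61 NAc to VTA differences, 52 of 53 NAc to PFC differences and 60 of 60 VTA to PFC differences that could be tested there.

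**Figure D1:**
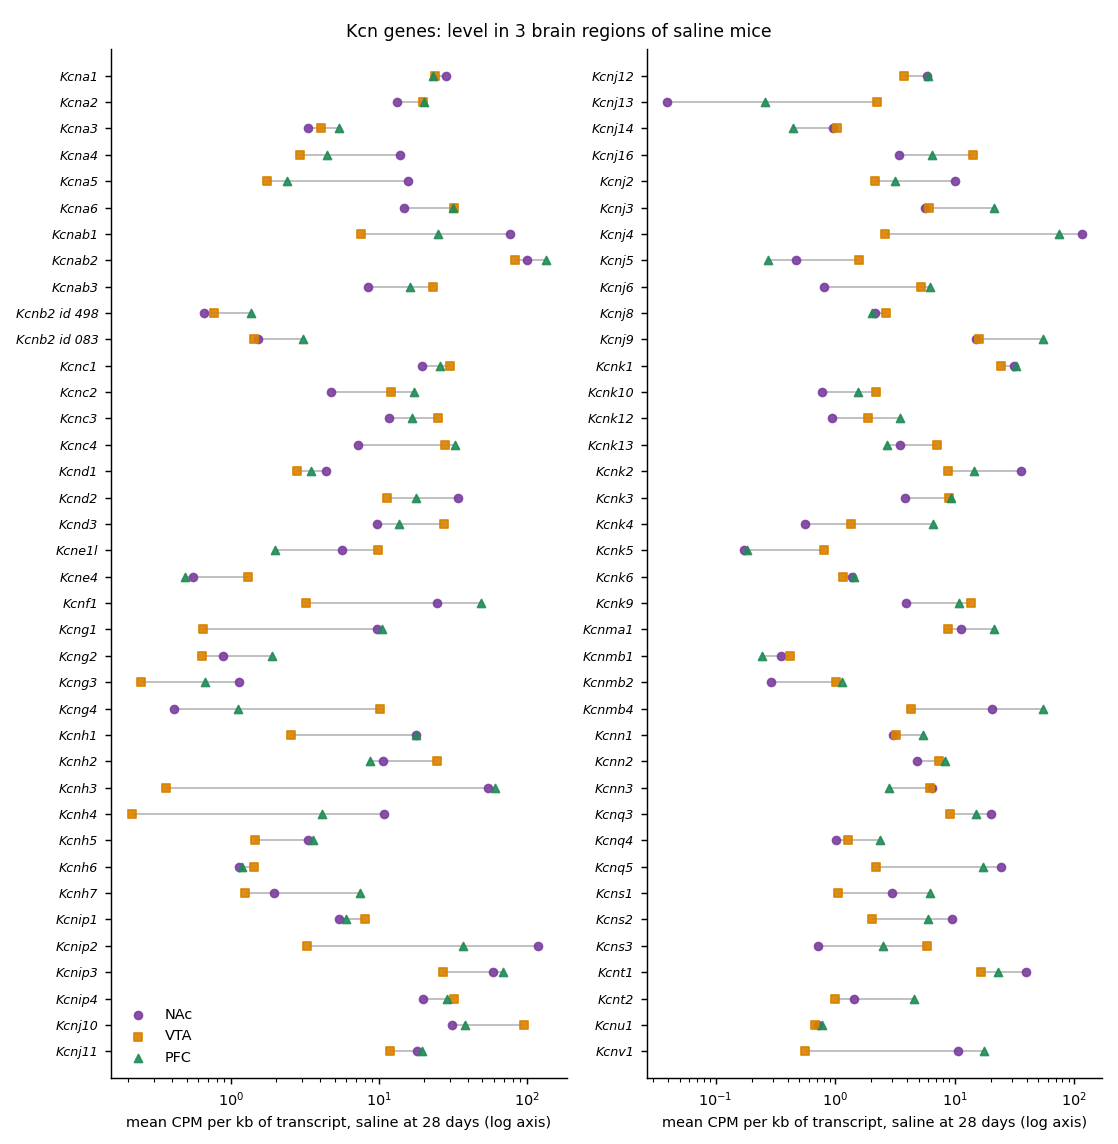
Mean level of 76 of the 78 kept Kcn genes in saline libraries at 28 days in the NAc (circles, n = 6), VTA (squares, n = 5) and PFC (triangles, n = 6), in CPM per kb of transcript on a log axis. The lines join the 3 regions, and the longest belong to genes low in the VTA, such as Kcnh3 and Kcnh4, and to Kcnj13, which was near 0 in the NAc. Errors are given in the text for the genes described.

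Among the pore-forming subunits of fast voltage-gated channels, the subfamilies divided by region. All 4 Kcnc genes, whose channels support fast repetitive firing, were lower in the NAc than in both other regions. Kcnc4 was at 7.19 ± 3.77 CPM per kb in the NAc (SD, n = 6), 27.8 ± 4.10 in the VTA (SD, n = 5) and 32.5 ± 4.75 in the PFC (SD, n = 6). The A-type subunits split. Kcnd2 was highest in the NAc, at 34.0 ± 6.63 CPM per kb against 11.4 ± 1.46 in the VTA and 17.9 ± 2.97 in the PFC. Kcnd3 was highest in the VTA, at 27.4 ± 12.7 CPM per kb against 9.74 ± 1.72 in the NAc and 13.6 ± 2.46 in the PFC, and it overlaps 1700095B22Rik on the opposite strand. Kcna4 and Kcna5 were above both other regions in the NAc. Kcna5 stood at 15.8 ± 2.23 CPM per kb in the NAc, 1.74 ± 0.615 in the VTA and 2.39 ± 2.81 in the PFC, where the large SD came with the 23.2 CPM of saline 4. Kcna1 passed the threshold in none of the 3 pairs of regions (adjusted p = 0.28 for NAc against VTA by edgeR).

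Silent subunits, which form no channel alone but change the gating of other alpha subunits, were sharply regional. Kcnf1 stood at 24.6 ± 1.35 CPM per kb in the NAc, 3.23 ± 1.43 in the VTA and 48.7 ± 7.78 in the PFC. Kcnv1 was at 10.7 ± 1.98, 0.557 ± 0.122 and 17.7 ± 2.63 CPM per kb in that order. Kcng4 and Kcns3 were highest in the VTA and lowest in the NAc. For Kcng4 the log2 difference, NAc minus VTA, was -4.61 (adjusted p = 1.8e-08 by edgeR). In the VTA table the 5 saline libraries held 26.3, 35.5, 30.8, 29.3 and 82.4 CPM of Kcng4, so that saline 5 stood apart, and every library was above the NAc level of 1.56 ± 0.71 CPM (SD, n = 6).

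Genes of the ether-a-go-go family (Kcnh), voltage-gated channels that include the ERG channels, held the widest regional difference of all Kcn genes. Kcnh3 was at 54.6 ± 5.33 CPM per kb in the NAc, 0.361 ± 0.0584 in the VTA and 60.6 ± 4.66 in the PFC. Its log2 difference, NAc minus VTA, of 7.23 (adjusted p = 9.4e-18 by edgeR) compares with -0.15 between NAc and PFC (adjusted p = 0.15). In the VTA table the 5 saline libraries held 1.70, 1.08, 1.40, 1.52 and 1.251 CPM of Kcnh3, a narrow and low range. Kcnh4 followed the same split, with a log2 difference, NAc minus VTA, of 5.66. Kcnh1 had nearly the same mean in NAc and PFC, 128 ± 9.47 and 128 ± 10.4 CPM (SD, n = 6 each), and lower in the VTA, at 18.5 ± 3.32 CPM (SD, n = 5). Kcnh2, the ERG gene that shapes repolarisation, ran the other way, with 24.5 ± 2.89 CPM per kb in the VTA, 10.7 ± 1.17 in the NAc and 8.70 ± 0.895 in the PFC. Kcnq5, which contributes to the M-current that brakes repetitive firing and overlaps Gm16705 on the opposite strand, stood at 24.4 ± 3.15 CPM per kb in the NAc, 2.22 ± 0.696 in the VTA and 17.2 ± 3.20 in the PFC.

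Of the cytosolic partners, Kcnip2 and Kcnab1 marked the NAc. Kcnip2, a KChIP that raises the surface level of Kcnd channels, stood at 119 ± 15.6 CPM per kb in the NAc, 3.23 ± 1.21 in the VTA and 36.8 ± 17.3 in the PFC. Kcnab1 was at 77.2 ± 19.4, 7.54 ± 1.98 and 25.1 ± 8.47 CPM per kb in that order. Both were raised in the library labelled PFC saline 4, which held 217 CPM of Kcnip2 against 81.8 to 95.1 CPM in the other PFC saline libraries. Kcnab2 was the most abundant channel gene of the PFC, at 135 ± 11.4 CPM per kb. Kcnip4 was highest in the VTA, at 31.9 ± 3.82, above the 19.9 ± 2.05 of the NAc, but its log2 difference of 0.14 from the PFC had an adjusted p of 0.21 by edgeR.

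Among inward rectifiers at 28 days, Kcnj4 had the highest level in the NAc and PFC and Kcnj10 in the VTA. At 1 day Kcnj10 had the highest mean over all libraries in each region, at 44.8 CPM per kb in the NAc, 118 RPKM in the VTA and 47.3 RPKM in the PFC. Kcnj4, a strong rectifier of forebrain neurons, stood at 116 ± 15.9 CPM per kb in the NAc, 2.61 ± 1.58 in the VTA and 74.2 ± 11.9 in the PFC. Kcnj10 and Kcnj16, whose products form the astroglial rectifier that clears potassium, were highest in the VTA. Kcnj10 was at 96.0 ± 20.5 CPM per kb there, 30.9 ± 3.44 in the NAc and 37.9 ± 5.46 in the PFC. The 4 GIRK genes each had their own pattern. Kcnj3 and Kcnj9 were above both other regions in the PFC, and for Kcnj9 the levels were 55.5 ± 8.15 CPM per kb in the PFC, 16.1 ± 4.19 in the VTA and 15.2 ± 2.85 in the NAc. Kcnj6, the GIRK subunit typical of dopamine neurons, was low in the NAc, at 0.809 ± 0.406 CPM per kb, against 5.22 ± 2.63 in the VTA and 6.25 ± 1.38 in the PFC, and the last pair did not differ beyond their spread (adjusted p = 0.50 by edgeR). Kcnj5 was the only GIRK gene higher in the VTA than in both other regions, at 1.58 ± 0.316 CPM per kb. Kcnj11, the pore of the ATP-sensitive channel, was lower in the VTA (11.8 ± 1.52 CPM per kb) than in the NAc (17.9 ± 1.10) and the PFC (19.6 ± 1.83).

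Leak and calcium-activated channels had smaller regional differences than Kcnh3 or Kcnj4. The tandem-pore gene Kcnk1 led its subfamily in the VTA and stood between 24.3 ± 3.57 CPM per kb there and 32.6 ± 2.59 in the PFC. Kcnk2, a mechanically gated TREK channel, was highest in the NAc (36.1 ± 5.72 CPM per kb, against 8.82 ± 1.84 in the VTA and 14.6 ± 3.64 in the PFC). The acid-sensitive TASK genes Kcnk3 and Kcnk9 were lower in the NAc (3.82 ± 0.841 and 3.92 ± 0.592 CPM per kb) than in the VTA (8.92 ± 3.29 and 13.7 ± 4.80) and did not differ between VTA and PFC beyond their spread (adjusted p = 0.80 and 0.17 by edgeR). The pore gene of the BK channel, Kcnma1, and its neuronal accessory Kcnmb4 were highest in the PFC, and Kcnmb4 stood at 55.2 ± 8.34 CPM per kb there, 20.6 ± 4.13 in the NAc and 4.35 ± 0.930 in the VTA. Kcnt1, a sodium-activated channel, was highest in the NAc at 39.6 ± 2.57 CPM per kb, against 16.5 ± 4.66 in the VTA and 23.0 ± 3.26 in the PFC.

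The study asked how gene expression differs between cocaine and saline mice at early and late abstinence, and each table gave that comparison for the channel genes. At an adjusted p under 0.05 no Kcn gene was called in any of the 6 tables, while the background over all genes tested was 0.0126% in the NAc at 1 day, 0.0665% in the VTA at 1 day, 0.00693% in the PFC at 1 day and 0 at 28 days in each region. At an adjusted p under 0.25, a looser threshold that the study's methods apply to a mean q as 1 of several criteria, 19 of 72 Kcn genes were called in the VTA at 1 day (26.4%, background 8.70%) and 0 in the other 5 tables, where the background was 0.0189% in the NAc at 1 day, 0.0277% in the PFC at 1 day and 0 at 28 days. At an unadjusted p under 0.05 there were 27 in the VTA at 1 day (37.5%, background 15.7%). Median log2 changes of the Kcn genes, cocaine minus saline, were -0.01 in the NAc at 1 day, -0.04 in the NAc at 28 days, 0.01 in the VTA at 1 day, 0.09 in the VTA at 28 days, -0.03 in the PFC at 1 day and 0.01 in the PFC at 28 days. The medians over all genes tested were between -0.03 and 0.03.

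**Figure D2:**
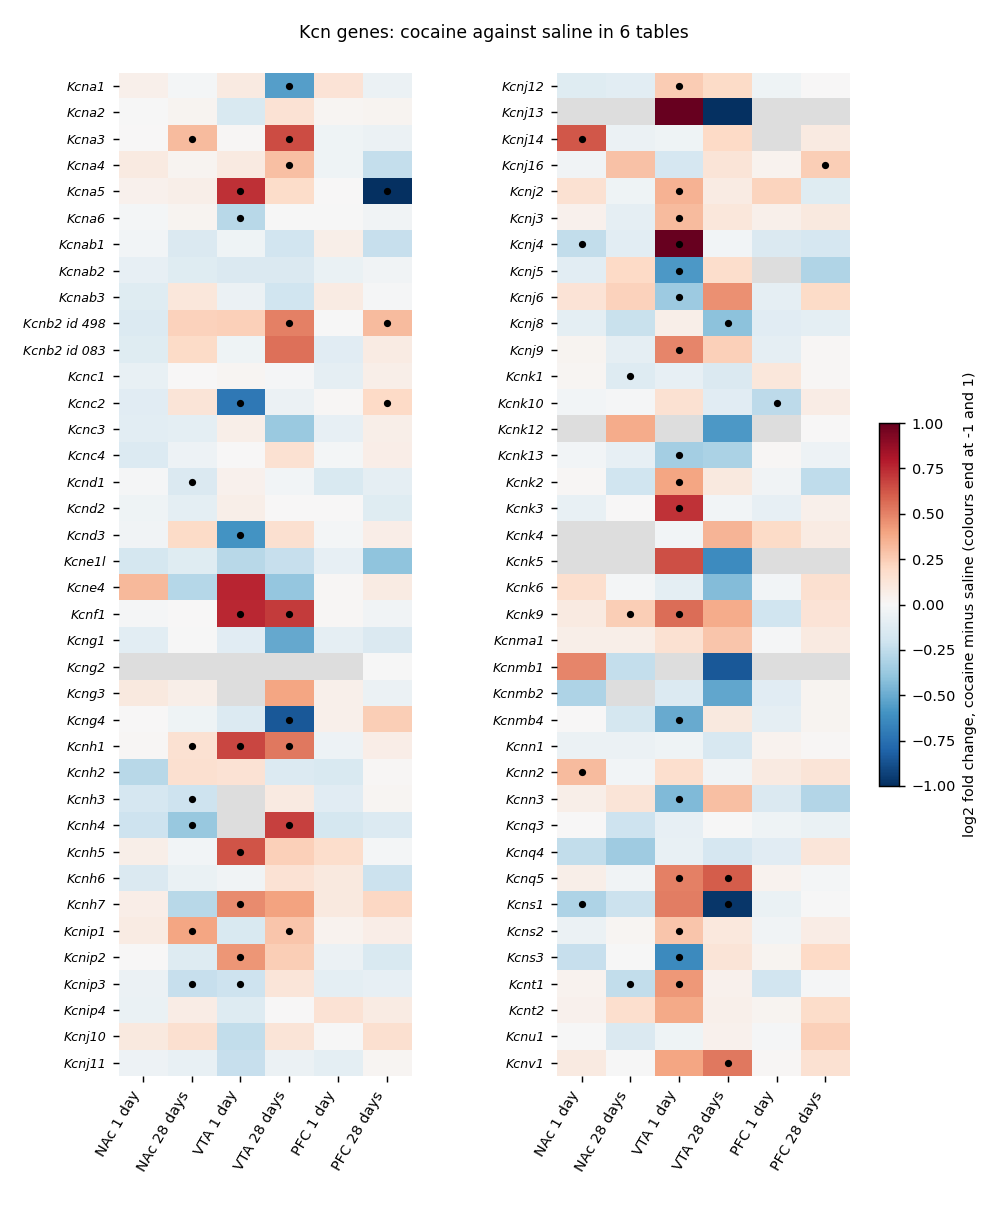
Log2 fold change of 76 of the 78 kept Kcn genes, cocaine minus saline, in the 6 tables; colours end at -1 and 1, grey marks a gene not kept in that table and a dot marks an unadjusted p under 0.05. The VTA column at 1 day holds 27 dots, the NAc columns hold 4 at 1 day and 10 at 28 days, and the PFC columns 1 and 4.

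In the VTA at 1 day, 13 of the 72 Kcn genes were higher after cocaine at an adjusted p under 0.25 (background 6.22%) and 6 were lower (background 2.49%). The higher group held 3 of 5 Kcnh genes, 3 of 13 Kcnj genes, 3 of 9 Kcnk genes, the silent subunits Kcnf1 and Kcns2, Kcna5 and Kcnq5. The lower group held Kcna6, Kcnc2, Kcnd3, Kcnmb4, Kcnn3 and Kcns3. This table was deposited as RPKM, and changes were tested with limma on log2(RPKM + 0.1), a scale that understates the change of low genes.

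Kcnh5, an ether-a-go-go channel gene (ENSMUSG00000034402, mm9 chr12:75998204-76278319), ranged from 2.34 to 2.96 RPKM over the cocaine libraries (median 2.59) and from 1.37 to 1.89 RPKM over the saline libraries (median 1.71). Kcnk3, the acid-sensitive leak channel (ENSMUSG00000049265, mm9 chr5:30890543-30927643), ranged from 6.74 to 10.1 RPKM in cocaine (median 8.53) and from 3.90 to 6.33 RPKM in saline (median 4.89). These were the only 2 of 72 Kcn genes whose cocaine and saline libraries did not overlap (background 1.67% of genes over the minimum). Their log2 changes were 0.63 ± 0.10 (SE, adjusted p = 0.053 by limma with Benjamini-Hochberg adjustment) and 0.72 ± 0.12 (SE, adjusted p = 0.054). In edgeR's test on reads recovered from RPKM, both genes and the silent subunit gene Kcns3 had an adjusted p under 0.05 (0.039 for Kcnh5, 0.040 for Kcnk3 and 0.045 for Kcns3). Kcnh1, the founding ether-a-go-go gene (ENSMUSG00000058248, mm9 chr1:194014666-194334041), held 1.90 to 4.23 RPKM in cocaine (median 3.40) and 1.80 to 2.29 RPKM in saline (median 1.95), with a log2 change of 0.67 ± 0.16 (SE, adjusted p = 0.112 by limma). In 5 of 6 cocaine libraries Kcnh1 was above all saline libraries, and cocaine 6 lay within the saline range. Kcnh7, an ERG-type gene, had a log2 change of 0.47 ± 0.15 (SE, adjusted p = 0.199 by limma) and overlaps Gca on the opposite strand.

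Among the silent subunits, Kcnf1 (ENSMUSG00000051726, mm9 chr12:17178908-17183694) ranged from 2.65 to 5.38 RPKM in cocaine (median 3.82) and from 1.92 to 2.66 RPKM in saline (median 2.396). Kcns3 (ENSMUSG00000043673, mm9 chr12:11097008-11157648) went the other way, from 5.52 to 7.67 RPKM in cocaine (median 6.59) and from 7.55 to 12.5 RPKM in saline (median 10.4). For each gene 5 of 6 cocaine libraries lay outside the saline range. The log2 changes were 0.75 ± 0.16 (SE, adjusted p = 0.077 by limma) for Kcnf1 and -0.64 ± 0.12 (SE, adjusted p = 0.067) for Kcns3. Kcns2 differed less, by 0.28 ± 0.10 on the log2 scale (SE, adjusted p = 0.236 by limma).

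The inward rectifier Kcnj4 (ENSMUSG00000044216, mm9 chr15:79314148-79335671) had the largest log2 change among the called genes, 1.57 ± 0.34 (SE, adjusted p = 0.083 by limma), at low levels. It ranged from 0.674 to 2.20 RPKM in cocaine (median 1.59) and from 0.197 to 1.09 RPKM in saline (median 0.407), and cocaine 6 was the library within the saline range. Kcnj2, another strong rectifier, ranged from 2.51 to 3.85 RPKM in cocaine (median 3.71) and from 2.57 to 2.94 RPKM in saline (median 2.66), and cocaine 1 was below all saline libraries. The GIRK genes did not move together. Kcnj9 held 10.7 to 18.8 RPKM in cocaine (median 15.6) and 9.18 to 12.3 RPKM in saline (median 11.2), a log2 change of 0.49 ± 0.13 (SE, adjusted p = 0.118 by limma). The other GIRK genes were not called, with log2 changes of 0.32 for Kcnj3, -0.57 for Kcnj5 and -0.36 for Kcnj6 (adjusted p = 0.30, 0.30 and 0.32 by limma). Kcnj3 overlaps Gm17595 on the opposite strand.

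Of the leak channels, Kcnk2 and Kcnk9 accompanied Kcnk3. Kcnk2 was 8.73 to 13.1 RPKM in cocaine (median 10.8) and 7.04 to 9.71 RPKM in saline (median 7.98), with a log2 change of 0.39 ± 0.10 (SE, adjusted p = 0.112 by limma). Kcnk9 was 13.3 to 29.7 RPKM in cocaine (median 24.0) and 12.8 to 20.7 RPKM in saline (median 14.8), with a log2 change of 0.56 ± 0.18 (SE, adjusted p = 0.188 by limma). Kcnk1, the most abundant gene of this subfamily in the VTA, was not called. The M-current gene Kcnq5 was 2.16 to 3.49 RPKM in cocaine (median 2.80) and 1.59 to 2.23 RPKM in saline (median 2.03), and Kcna5 1.22 to 2.21 RPKM (median 1.75) against 0.677 to 1.38 RPKM (median 0.979). For both, 5 of 6 cocaine libraries were above all saline libraries.

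Lower after cocaine were single genes of 6 subfamilies and no subfamily as a whole. They were 1 of 6 Kcna, 1 of 4 Kcnc, 1 of 3 Kcnd, 1 of 2 Kcnmb, 1 of 3 Kcnn and 1 of 3 Kcns genes. Kcna6, the most abundant Kcna gene of the VTA, was 27.5 to 36.1 RPKM in cocaine (median 32.8) and 35.6 to 40.1 RPKM in saline (median 38.7), with a log2 change of -0.28 ± 0.07 (SE, adjusted p = 0.107 by limma). It overlaps Gm17456 on the opposite strand. The A-type gene Kcnd3 was 19.9 to 43.3 RPKM in cocaine (median 32.6) and 36.3 to 63.8 RPKM in saline (median 47.5). The fast-spiking gene Kcnc2 was 8.07 to 18.0 RPKM in cocaine (median 10.9) and 12.2 to 26.2 RPKM in saline (median 21.1). In both, 4 of 6 cocaine libraries were below all saline libraries. Kcnn3, the small-conductance channel that paces dopamine neurons, was 4.12 to 6.65 RPKM in cocaine (median 6.15) and 4.97 to 9.74 RPKM in saline (median 8.46), and only 1 cocaine library was below all saline libraries (log2 change -0.44 ± 0.17 SE, adjusted p = 0.242 by limma). Kcnmb4, the BK accessory gene, which overlaps 1700058G18Rik and 4933400F03Rik on the opposite strand, had a log2 change of -0.50 ± 0.16 (SE, adjusted p = 0.188 by limma).

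**Figure D3:**
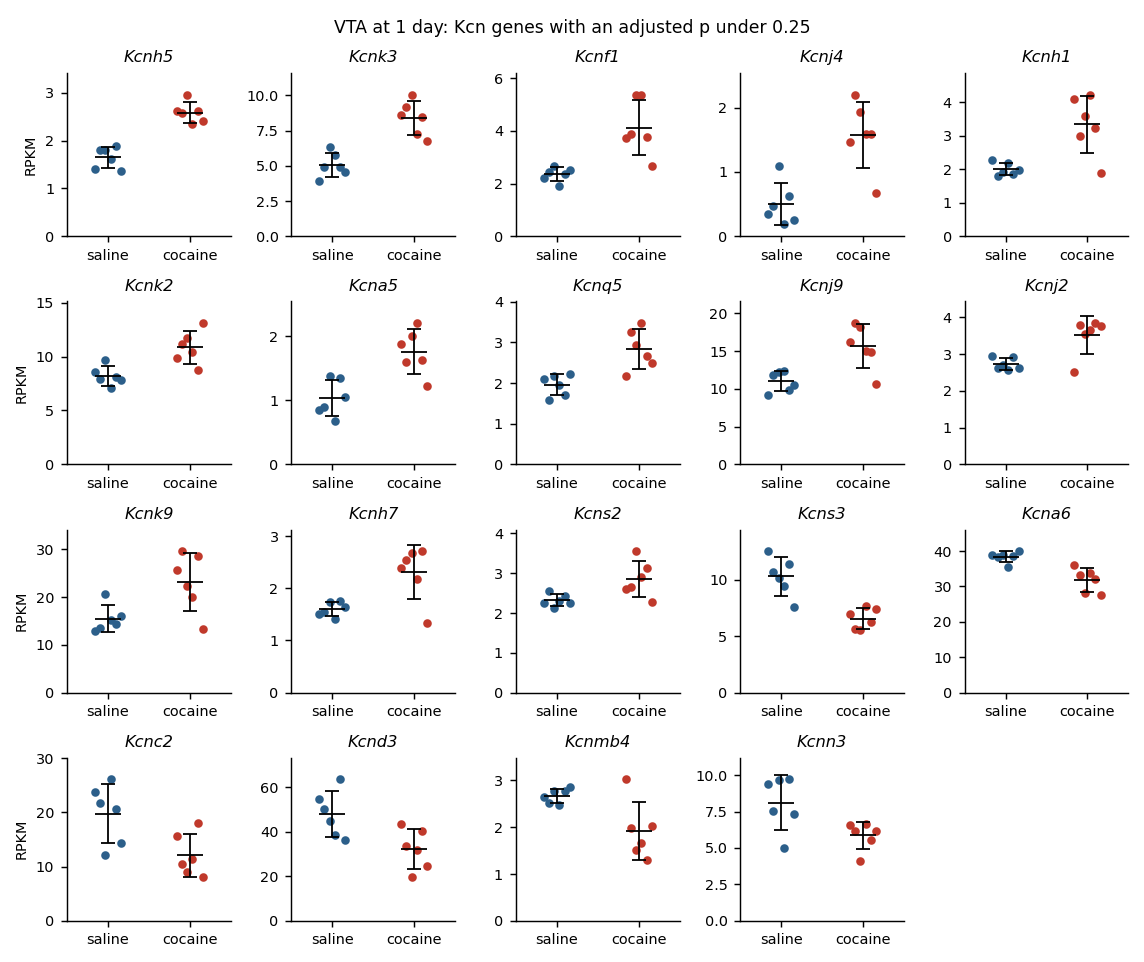
RPKM of the 19 Kcn genes with an adjusted p under 0.25 in the VTA at 1 day, each point a library (6 saline, 6 cocaine), with the mean and SD as bars; every axis starts at 0. Kcnh5 and Kcnk3 show no overlap of the groups, and the groups overlap in the other 17 panels.

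Markers of other cell types moved with this comparison. Of the 13 genes higher after cocaine, 12 were higher in the PFC than in the VTA in saline libraries at 28 days. For 10 of them the adjusted p was under 0.05 by edgeR. Of the 6 lower genes 4 were higher in the VTA, 3 of them at that threshold. Among all 78 Kcn genes 42 were called higher in the PFC and 19 in the VTA (background 28.1% and 29.8%). The VTA change at 1 day and the VTA minus PFC difference had r = -0.26 and rho = -0.34 (Pearson and Spearman) over 72 Kcn genes. Over all 14880 genes tested r was 0.075 and rho -0.045. The VTA change at 28 days was likewise set against the VTA minus PFC difference at 1 day. There r was -0.33 and rho -0.33 over 77 Kcn genes, and -0.17 and -0.27 over all 16069 genes tested. In the VTA at 1 day 4 of 8 cortical excitatory neuron markers reached 0.5 RPKM. Their list of 8 summed to 14.2 to 82.0 RPKM in cocaine and 7.82 to 36.3 RPKM in saline. Dopamine neuron markers summed to 430 to 1051 RPKM in cocaine and 671 to 1713 RPKM in saline, with 2 of 7 tested lower at an adjusted p under 0.25. Microglial markers were 165 to 256 RPKM in cocaine and 242 to 353 RPKM in saline, with 6 of 10 lower at that threshold, and mural cell markers were 111 to 541 RPKM and 87.2 to 206 RPKM. Their part in the result was not tested beyond fits that carried a list as a covariate. With the cortical list as a covariate, 3 of the 19 genes kept an adjusted p under 0.25 by limma (Kcnh1, Kcnh5 and Kcnk3) and Kcnk13 was called in addition. In that fit the log2 changes of Kcnh5, Kcnk3 and Kcnj4 were 0.64, 0.70 and 1.43, whereas that of Kcnc2 went from -0.72 to -0.05, that of Kcnd3 from -0.60 to -0.23 and that of Kcnk2 from 0.39 to 0.20. With the dopamine list as a covariate 17 Kcn genes were called, some of them not among the 19. Of the 19, Kcnj2, Kcnj9, Kcnc2, Kcnd3, Kcnk9, Kcnmb4, Kcnh7, Kcns2 and Kcnn3 then had an adjusted p above 0.25. In that fit the log2 change of Kcnn3 went from -0.44 to -0.06 and that of Kcnd3 to -0.27. Without the 2 cocaine libraries highest in the cortical list 20 Kcn genes were called, some of them not among the 19. Of the 19, Kcnj2, Kcnc2, Kcnd3, Kcnmb4 and Kcnn3 then had an adjusted p above 0.25. Leaving out 1 library gave 10 genes without saline 1, 11 without cocaine 2, cocaine 3 or saline 2, 12 without cocaine 4 and up to 27 without cocaine 6. The shares over all genes in these alternative fits are not given here.

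**Figure D4:**
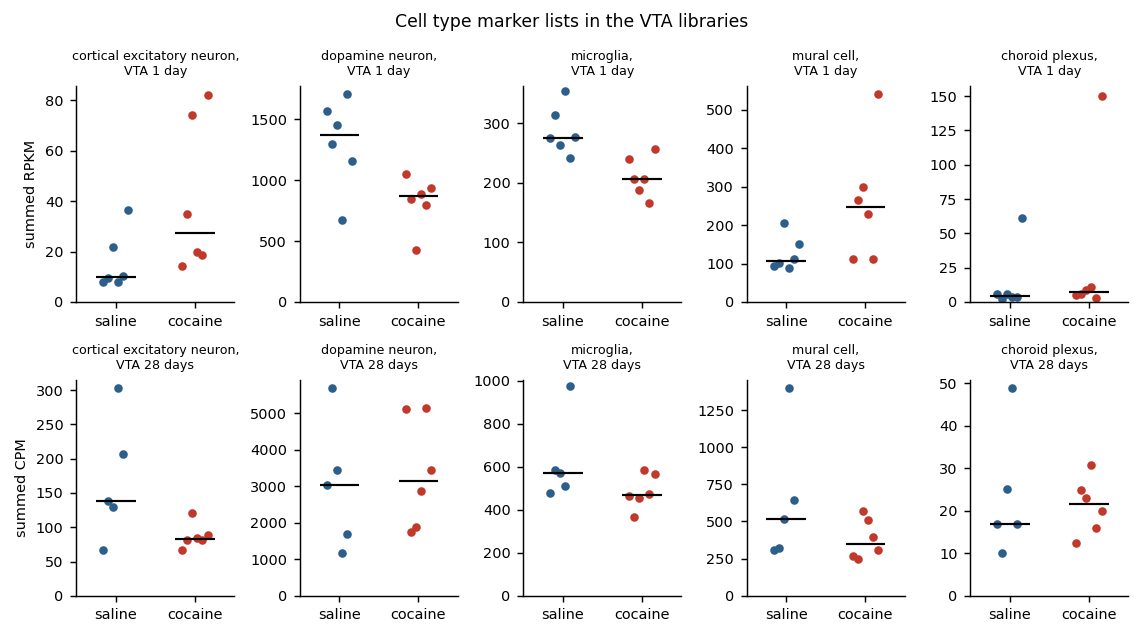
Summed level of 5 cell type marker lists in each VTA library, in RPKM at 1 day (upper row) and in CPM at 28 days (lower row), with the group median as a bar. At 1 day the cortical and mural lists lay higher and the dopamine and microglial lists lower in cocaine; at 28 days the cortical list ranged from 66.6 to 121 CPM in cocaine and from 66.9 to 304 CPM in saline.

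Kcnj13, a rectifier of secretory and barrier epithelia that overlaps Gigyf2 on the opposite strand, differed widely between libraries of the same group. The cocaine libraries held 0.0313, 1.84, 7.34, 7.58, 0.309 and 29.3 RPKM and the saline libraries 0.482, 1.52, 0.720, 0.0666, 0.248 and 1.41 RPKM. Its highest library, cocaine 6, also had the highest choroid plexus sum (150 RPKM, against 2.80 to 10.6 RPKM in the other cocaine libraries), whereas saline 6, with a choroid plexus sum of 60.9 RPKM, held 1.41 RPKM of Kcnj13. The log2 change of 1.89 ± 1.14 (SE) had an adjusted p of 0.45 by limma.

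The study centres on the transcription factor Nr4a1, which binds the element AAAGGTCA (NBRE), and promoters of the channel genes were searched for it on both strands, along with the cyclic AMP response element TGACGTCA and its core TGACG, which lies within the full element. RefSeq promoters (GRCm38.p6, 250 bases before to 50 after the start) were matched for 55 of the kept genes, including 16 of the 19 called in the VTA at 1 day. These 55 genes had 78 promoters, since some had several starts. The NBRE letters were in 1.51% of 32851 promoters and in 1 of the 78 channel gene promoters. That promoter was of Kcnh1, with the match 223 bases before the start on the strand opposite to the gene. TGACGTCA was in 1.79% of all promoters and in no channel gene promoter. TGACG was in 20.8% of all promoters and in 14 of the 78 channel gene promoters, each of another gene. Of these genes Kcna6, Kcnh5 and Kcnj4 were among the called genes. The sequences below are the promoters of the Kcnh and Kcnj genes of the called group that hold a match, shown 5′ to 3′ on the strand of the gene with the match in capitals (Kcnh1 chr1:192190527-192190826, plus strand; Kcnh5 chr12:75177283-75177582, minus strand; Kcnj4 chr15:79505192-79505491, minus strand).
Kcnh1: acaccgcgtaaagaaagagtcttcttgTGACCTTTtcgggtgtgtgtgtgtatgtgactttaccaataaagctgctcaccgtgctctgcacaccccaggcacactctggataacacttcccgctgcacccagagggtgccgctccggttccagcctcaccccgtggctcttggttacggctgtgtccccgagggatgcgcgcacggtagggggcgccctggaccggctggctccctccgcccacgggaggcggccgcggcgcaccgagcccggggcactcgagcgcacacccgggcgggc
Kcnh5: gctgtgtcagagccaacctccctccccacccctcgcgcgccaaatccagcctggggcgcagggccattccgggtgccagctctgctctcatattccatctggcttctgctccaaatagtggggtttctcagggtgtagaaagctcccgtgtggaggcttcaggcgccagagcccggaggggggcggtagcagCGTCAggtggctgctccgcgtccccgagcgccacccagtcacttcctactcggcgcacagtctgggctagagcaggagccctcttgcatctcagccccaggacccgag
Kcnj4: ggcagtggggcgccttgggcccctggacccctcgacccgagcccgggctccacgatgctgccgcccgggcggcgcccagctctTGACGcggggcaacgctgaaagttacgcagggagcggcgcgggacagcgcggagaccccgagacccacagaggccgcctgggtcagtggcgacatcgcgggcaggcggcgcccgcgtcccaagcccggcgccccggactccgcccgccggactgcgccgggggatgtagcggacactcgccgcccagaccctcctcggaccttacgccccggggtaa
In the Kcnh1 promoter the capitals TGACCTTT are the NBRE letters read on the opposite strand, and in the Kcnh5 promoter CGTCA is TGACG on the opposite strand. Channel gene promoters held a median of 10 CpG and 60% GC, against 7 CpG and 52.7% GC over all promoters. A letter match in this window is a description and not a binding site.

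In the VTA at 28 days, 15 of 77 Kcn genes had an unadjusted p under 0.05 by edgeR (19.5%, background 11.5%), 11 higher after cocaine (background 5.08%) and 4 lower (background 6.39%), and their adjusted p-values lay between 0.389 and 0.417. Kcna3, a delayed rectifier, held 11.1 to 14.7 CPM in cocaine (median 13.8) and 5.86, 10.7, 10.5, 9.28 and 6.34 CPM in the 5 saline libraries. The groups did not overlap for Kcna3, as for 1.34% of all genes over the minimum, and its log2 change was 0.65 ± 0.17 (SE, adjusted p = 0.389 by edgeR). The count at an adjusted p under 0.25 was 0 by edgeR with all libraries and with 10 of the 11 left out in turn, and 21 (12 higher, 9 lower) without saline 1. With the cortical marker list as a covariate it was 18 (16 higher, 2 lower). The shares over all genes in these fits are not given here, so the counts do not show whether the Kcn genes stood out.

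The silent subunits Kcns1 and Kcng4 had negative log2 changes. Kcns1 held 1.06 to 2.45 CPM in cocaine (median 1.47) and 2.46, 2.69, 2.43, 3.67 and 4.03 CPM in saline, a log2 change of -0.97 ± 0.23 (SE, adjusted p = 0.389 by edgeR). Kcng4 held 11.9 to 32.7 CPM in cocaine (median 21.9), and its log2 change of -0.84 became -0.42 without saline 5, the library at 82.4 CPM, and no longer had an unadjusted p under 0.05. Kcnip1, a KChIP, was almost constant over the cocaine libraries, at 41.0 to 47.2 CPM (median 41.3), whereas the saline libraries held 41.4, 32.6, 37.5, 32.9 and 30.3 CPM (log2 change 0.28 ± 0.08 SE, adjusted p = 0.389 by edgeR).

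Kcnf1, Kcnh1 and Kcnq5 had an unadjusted p under 0.05 at both times in the VTA, each with a positive log2 change (3 of 72 genes or 4.17%, background 0.524%). Kcnf1 held 19.5 to 38.4 CPM in cocaine at 28 days (median 26.1) and 26.4, 10.2, 13.9, 22.6 and 9.70 CPM in saline. Kcnh1 held 20.1 to 34.5 CPM (median 29.3) and 25.2, 15.8, 18.4, 21.9 and 17.4 CPM. Kcnq5 held 17.0 to 33.9 CPM (median 24.7) and 18.3, 12.1, 16.6, 24.3 and 11.5 CPM. The groups overlapped for all 3 genes, and the log2 changes were 0.70 for Kcnf1, 0.53 for Kcnh1 and 0.61 for Kcnq5 (adjusted p = 0.408, 0.389 and 0.394 by edgeR). With 1 library left out in turn at 28 days, Kcnf1 stayed under an unadjusted 0.05 in 7 of 11 fits, and Kcnh1 and Kcnq5 in 11 of 11. In this table the cortical marker sum was, in cocaine and saline, 66.6 to 121 CPM and 66.9 to 304 CPM. Endothelial markers summed to 278 to 404 CPM in cocaine and 328 to 651 CPM in saline (4 of 8 lower at an unadjusted p under 0.05). Microglial markers summed to 367 to 583 CPM and 480 to 975 CPM (3 of 10 lower), and 3 of 8 oligodendrocyte markers were lower. The part of these 3 lists in the result was not tested.

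Of the 19 genes called at 1 day, 11 of the 13 higher ones had a positive log2 change at 28 days too, and 2 of the 6 lower ones a negative one. Kcnh5 held 5.54 to 9.75 CPM in cocaine at 28 days (median 7.53) and 1.95, 6.39, 7.95, 9.83 and 5.28 CPM in saline (log2 change 0.24 ± 0.31 SE, adjusted p = 0.75 by edgeR). Kcnk3 had a log2 change of -0.02 ± 0.24 (SE) and Kcnj4 of -0.02 ± 0.59 (SE), with the 2 groups of each overlapping over most of their range. Across the 72 Kcn genes the changes at the 2 times correlated with Pearson's r = -0.15 and Spearman's rho = 0.12, given as a description over genes that are not independent, and 40 of 72 had the same sign. Over all 14897 genes tested at both times r was -0.39 and rho -0.088, and 7351 had the same sign.

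**Figure D5:**
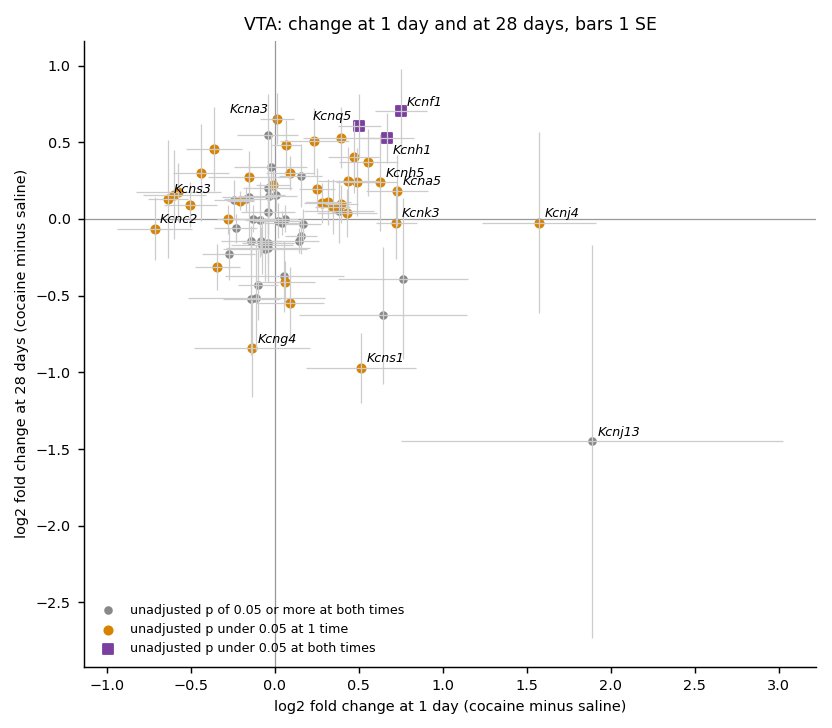
Log2 change of 72 Kcn genes in the VTA, cocaine minus saline, at 1 day (horizontal) and 28 days (vertical), with bars of 1 SE. The 3 squares, Kcnf1, Kcnh1 and Kcnq5, have an unadjusted p under 0.05 at both times and lie at the upper right, whereas Kcnj4 and Kcnk3 lie near 0 at 28 days.

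The difference between the times was tested as an interaction of treatment and time on read counts, with counts at 1 day recovered from RPKM. No Kcn gene had an adjusted p under 0.05 by edgeR in any region, and in the VTA 8 of 72 had an adjusted p under 0.25, near the background of 10.4%, against 0 in the NAc (background 0.0482%) and 0 in the PFC (background 0.0302%). At an adjusted p under 0.05 the background was 0.0181% in the NAc, 0 in the VTA and 0.00604% in the PFC. In the VTA the change at 28 days minus that at 1 day was 0.68 ± 0.20 for Kcna3, 0.36 ± 0.11 for Kcnip3, 0.31 ± 0.11 for Kcna6, 0.61 ± 0.23 for Kcnmb4 and 0.85 ± 0.33 for Kcnj6 (log2, SE). It was -0.71 ± 0.28 for Kcnk3, -1.54 ± 0.46 for Kcns1 and -4.82 ± 1.76 for Kcnj13. Adjusted p-values for these 8 genes lay between 0.164 and 0.214. Time and table cannot be told apart, since each time was deposited separately and in the VTA in another unit. Leaving out 1 library took the count to between 0 (without 1 day cocaine 6, 1 day saline 1, 28 days cocaine 2, cocaine 6, saline 4 or saline 5) and 23 (without 28 days saline 1).

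In the NAc the channel genes held close to their saline levels at 1 day. Of 73 genes, 66 had a log2 change under 0.25 in size, and 4 had an unadjusted p under 0.05 by edgeR (5.48%, background 4.01%), with a smallest adjusted p of 0.99. Kcnn2, a small-conductance calcium-activated channel, held 20.7 to 30.1 CPM in cocaine (median 22.1) and 15.6 to 21.9 CPM in saline (median 19.4), a log2 change of 0.32 ± 0.11 (SE). Kcnj14 had a log2 change of 0.62 ± 0.20 (SE) at 1.18 to 2.61 CPM in cocaine (median 1.65) and 0.936 to 1.45 CPM in saline (median 1.05). Kcnj4 and Kcns1 had negative log2 changes, -0.25 ± 0.11 and -0.31 ± 0.13 (SE). The 2 treatment groups of all 4 genes overlapped.

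At 28 days in the NAc, 10 of 73 genes had an unadjusted p under 0.05 by edgeR (13.7%, background 6.76%), 4 higher (background 3.34%) and 6 lower (background 3.42%), with adjusted p-values from 0.59 to 0.73. In the same table inhibitory neuron markers summed to 1864 to 2176 CPM in cocaine and 1699 to 1981 CPM in saline, with 2 of 6 higher at an unadjusted p under 0.05. Oligodendrocyte markers summed to 5182 to 6469 CPM and 5991 to 7013 CPM, with 2 of 8 lower, and endothelial markers to 237 to 293 CPM and 262 to 339 CPM, with 3 of 8 lower. Their part in the result was not tested. Kcnt1, the sodium-activated channel that is highest in this region, held 169 to 222 CPM in cocaine (median 191) and 210 to 253 CPM in saline (median 231). Kcnh3 held 160 to 181 CPM (median 165) and 171 to 227 CPM (median 194), and Kcnh4 27.0 to 41.8 CPM (median 30.1) and 29.7 to 52.1 CPM (median 44.0). All 3 are genes whose NAc level exceeded that of the VTA, and their log2 changes were -0.25 ± 0.07, -0.20 ± 0.06 and -0.38 ± 0.13 (SE). Kcnip3 (-0.23), Kcnd1 (-0.14) and Kcnk1 (-0.13) also had negative log2 changes. Positive ones were found for Kcna3, at 7.34 to 9.40 CPM in cocaine (median 7.95) and 5.35 to 7.36 CPM in saline (median 6.59), and for Kcnip1, Kcnk9 and Kcnh1. For Kcna3 the log2 change was 0.32 ± 0.09 (SE), and 5 of 6 cocaine libraries were above all saline libraries. Kcna3, Kcnh1 and Kcnip1 had an unadjusted p under 0.05 and a positive change in both the NAc and the VTA at 28 days (3 of 73 genes or 4.11%, background 0.445%). Libraries of both regions may come from the same mice. With 1 NAc library left out in turn, Kcna3 stayed under 0.05 in 12 of 12 fits, Kcnh1 in 8 and Kcnip1 in 5. Kcnh4 was negative in the NAc and positive in the VTA, where it held 1.04 to 2.56 CPM in cocaine and stayed under 0.05 in 6 of 11 fits, not in the one without cocaine 2.

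In the PFC few channel genes differed. At 1 day 70 of 71 genes had a log2 change under 0.25 in size, and only Kcnk10, a TREK-type leak channel, had an unadjusted p under 0.05 by limma (1.41%, background 3.78%). It held 1.37 to 1.89 RPKM in cocaine (median 1.58) and 1.62 to 2.47 RPKM in saline (median 1.81), a log2 change of -0.26 ± 0.12 (SE, adjusted p = 0.91 by limma). At 28 days 4 of 75 genes had an unadjusted p under 0.05 by edgeR (5.33%, background 5.66%), with a smallest adjusted p of 0.84. The astroglial rectifier Kcnj16 held 24.7 to 30.3 CPM in cocaine (median 26.2) and 17.5 to 27.3 CPM in saline (median 22.8), and Kcnc2 107 to 126 CPM (median 118) and 75.5 to 122 CPM (median 104). Kcna5 had a log2 change of -1.27 ± 0.50 (SE), which became -0.35 without PFC saline 4, the library high in medium spiny neuron markers, and no longer had an unadjusted p under 0.05. The cocaine libraries held 2.42 to 3.28 CPM of Kcna5, and all saline libraries but saline 2 (6.63 CPM) and saline 4 (23.2 CPM) lay between 2.53 and 3.28 CPM.

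Proteins outside the Kcn names also shape these currents, and 16 such genes were read beside them, among them the hyperpolarisation-activated Hcn genes, the Kcnd partners Dpp6 and Dpp10, the sulphonylurea receptors Abcc8 and Abcc9, and Cntnap2 and Adam22, which place channels at the axon. None was called at an adjusted p under 0.25 in any table, where edgeR served the count tables and limma the RPKM tables. Of these, 14 could be tested in each table except the PFC at 1 day, where 13 could. At an unadjusted p under 0.05 there were 6 of 14 in the NAc at 28 days (background 6.76%), 3 with a positive log2 change, among them Lrrc38 (0.77) and Dpp10 (0.19), and 3 with a negative one (Abcc9 -0.37, Hcn2 -0.16 and Adam22 -0.11). In the VTA there was 1 of 14 at 1 day (Hcn2, log2 change -0.25, background 15.7%) and 2 of 14 at 28 days (Dpp6, 0.33, and Cntnap2, 0.38, background 11.5%). In the PFC there was 1 of 14 at 28 days (Adam22, 0.11, background 5.66%), and there were 0 in the NAc and PFC at 1 day. Dpp6 held 478 ± 38.6 CPM in cocaine (SD, n = 6) and 381 ± 49.5 CPM in saline (SD, n = 5) in the VTA at 28 days (adjusted p = 0.39 by edgeR), while its partner Kcnd2 had no unadjusted p under 0.05 at either time in the VTA.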

How the data were processed

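RNA-seq was measured in 71 punches of mouse NAc, VTA and PFC, grouped by the submitters' labels. Reads were aligned with STAR 2.4.1d to mm9, per the submitters' processing notes, which also list DESeq2 and edgeR. The counting tool and strand setting are not given in the sources used here, so opposite-strand overlaps are named beside the genes. The authors deposited raw counts for the NAc at 1 day and for all regions at 28 days. The authors deposited RPKM, reads scaled to library size and gene length, for the VTA and PFC at 1 day. The tables also hold the authors' fold changes and p-values and 30 columns of no sample analysed here, and none of these was used.

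Count tables were filtered with filterByExpr (minimum count 10), scaled by TMM and tested with edgeR's quasi-likelihood test (edgeR 4.0.16, R 4.3.3). RPKM tables were tested with limma 3.58.1 (moderated with a mean-variance trend) on log2(RPKM + 0.1) for each gene averaging 0.5 RPKM or more in the table. P-values were two-sided and Benjamini-Hochberg adjusted over all genes tested. CPM in the text are counts over the library total of the filtered genes, adjusted by TMM within each table. For regional levels TMM ran over the saline libraries of the 3 regions together. CPM per kb divide CPM by the gene length implied by the RPKM steps. Whole reads were recovered from RPKM for 100% of genes (within 0.0001 of a whole number), which gave the depth of those libraries and the counts for the interaction of treatment and time. In edgeR on these reads at 1 day, 3 Kcn genes in the VTA and 0 in the PFC had an adjusted p under 0.05. In simulated data for the VTA at 1 day (14818 genes) 47.5% of 200 genes changed 1.5-fold were recovered, and at 28 days (16800 genes) 32.0%.

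The channel genes, marker lists and partner genes were chosen with earlier results of these data known. Some genes are counted in the totals but not reported here. Genes named are, per table, those called, the 5 smallest p-values in each direction, the subfamily leader by region and a fixed list. Genes given as counted, at a threshold's edge, or left out under an alternative were added after their values were seen. Alternatives were DESeq2 1.42.0, DESeq2 size factors, no filter on low values, pseudocount 1, edgeR on recovered reads, a member minimum doubled, a replicate block, the cortical list as a covariate, saline libraries at 1 day for the regions and each library left out. Chosen after seeing the data were limma without a trend, DESeq2 on recovered reads, the dopamine list as a covariate and leaving out the 2 libraries highest in the cortical list. Promoters and their positions came from RefSeq on GRCm38.p6, and gene positions and overlaps from a GENCODE annotation of mm9, matched by gene identifier.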

Additional observations from a re-analysis of the deposited data

Results flagged for a closer look

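In 126 groups of 5 or 6 libraries, the highest or lowest library was compared with the rest by Dixon's gap test, which chance passes in about 1 group in 20. A single library stood apart for 6 Kcn genes. In the NAc at 1 day cocaine 6 held 30.09 CPM of Kcnn2 (nearest library 23.14). In the VTA at 1 day cocaine 1 held 2.508 RPKM of Kcnj2 (nearest 3.557). In the VTA at 28 days saline 5 held 82.42 CPM of Kcng4 (nearest 35.54), and cocaine 2 held 2.56 CPM of Kcnh4 (nearest 1.512) and 47.25 CPM of Kcnip1 (nearest 41.66). In the PFC at 28 days saline 4 held 23.25 CPM of Kcna5 (nearest 6.633). The same library stood apart in the summed medium spiny neuron markers, at 3198 CPM (nearest 330.4). Choroid plexus markers stood apart in the VTA at 1 day in cocaine 6, at 150.2 RPKM (nearest 10.6), and in saline 6, at 60.9 RPKM (nearest 6.009).

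In the VTA the interaction of treatment and time had an adjusted p under 0.25 by edgeR for 8 of 72 Kcn genes, a share near the background of 10.4%, with adjusted p-values from 0.164 to 0.214. Leaving out 1 library took the count to between 0 and 23. The log2 change at 28 days minus that at 1 day was 0.6839 for Kcna3, 0.3585 for Kcnip3, 0.3108 for Kcna6, 0.6126 for Kcnmb4 and 0.8482 for Kcnj6. It was -1.536 for Kcns1, -0.713 for Kcnk3 and -4.823 for Kcnj13.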

How the results depend on the processing

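In the VTA at 1 day, the count of Kcn genes at an adjusted p under 0.05 (0 by limma) was 1 with a pseudocount of 1, 3 in edgeR and 14 in DESeq2 on recovered reads, 2 in limma without a trend and 1 without the 2 cocaine libraries highest in the cortical list. It ranged from 0 to 9 with 1 library left out (9 without cocaine 6, 3 without saline 3). At an adjusted p under 0.25 (19 by limma) it was 12 with no filter on low values, 30 in DESeq2 on recovered reads and 4 with the cortical list as a covariate, and from 10 (without saline 1) to 27 (without cocaine 6). At 28 days DESeq2 called 2 at an adjusted p under 0.05 and 11 under 0.25 in the VTA and 2 under 0.25 in the NAc, where edgeR called 0. The cortical covariate gave 18 in the VTA and 2 in the NAc at that threshold, with 0 to 21 in the VTA with 1 library left out (21 without saline 1), and turned the log2 change of Kcna1 in the VTA from -0.55 to 0.0046. For the interaction in the VTA DESeq2 called 2 at an adjusted p under 0.05 and 17 under 0.25 (8 by edgeR), and with 1 library left out the latter ran from 0 to 23. A log2 difference of at least 1 left 31 genes between NAc and PFC (from 54) and 39 between VTA and PFC (from 61). The cause of these differences was not tested, save for the stricter rule in the last. Throughout, counts under the alternatives are given without the share over all genes in the same fit. They therefore do not show whether the Kcn genes stood out there.

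Whether equal replicate numbers pair the cocaine and saline libraries was left unsettled. Correlations of deviations between libraries of equal number at 1 day ran from -0.55 to 0.69 in the NAc. They ran from -0.31 to 0.49 in the VTA and from -0.19 to 0.12 in the PFC. Pairs with a correlation of deviations over 0.1 were 3 of 6 in the NAc, 4 of 6 in the VTA and 1 of 6 in the PFC at 1 day, and 2, 2 and 0 pairs matched best with their own number. With the replicate block, 3 Kcn genes in the VTA at 1 day had an adjusted p under 0.05 by limma and 22 under 0.25. No paired analysis was possible at 28 days because the columns are tied to groups and not to numbered samples. Log2 changes of genes with an unadjusted p under 0.05 in the main fit of a table were followed over the alternatives. Each gene was counted once per table and alternative, and the genes were chosen by those main fits. Of these changes 971 stayed on the same side of an adjusted p of 0.25 in the same direction. A further 66 crossed to under it, 95 crossed to above it and 1 reversed.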
